A study of Mus musculus with 27 samples.

Results

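A set of 6 genes of the neurotrophin system was followed through the differentiation of mouse calvarial osteoblasts: the secreted ligands Bdnf and Ntf3, the receptors Ngfr, Ntrk2 and Ntrk3, and the sorting receptor Sort1. They were chosen by name, with earlier results of these data in view, as 6 of the 37991 genes in every profile, and their levels and changes are therefore given as a description, without a test. The series holds 27 RNA sequencing profiles, 3 for each of 9 days from day 2 to day 18. The cells came from the calvaria, the roof of the skull, of neonatal C57BL/6J-Col3.6 CFP mice aged 5 to 9 days. In these mice the Col3.6 fragment of the type I collagen promoter drives cyan fluorescent protein (CFP), and after 4 days of culture the CFP-positive cells were kept by sorting. Every day group was then grown in the same αMEM with ascorbic acid, β-glycerol phosphate, 10% fetal bovine serum and antibiotics, so that time is the labelled difference between groups. The labels name no separate litters or cultures, while the study's methods speak of triplicate samples at each time. The 3 profiles of a day share 1 barcode, come from different sequencing lanes and differ by no more than sampling noise, and they were therefore counted as 1 library. On that reading an SD over them measures lane-to-lane counting spread, and no value here measures the spread between cultures.

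Neurotrophins are secreted growth factors that are made as proproteins and cleaved to mature ligands. Mature ligands signal through the Trk receptor tyrosine kinases, Bdnf through TrkB (Ntrk2) and Ntf3, neurotrophin-3, mainly through TrkC (Ntrk3), while the p75 receptor Ngfr binds all of them and pairs with sortilin (Sort1) to bind the uncleaved proforms. They are best known for the survival and growth of neurons, and in bone they are also known from osteoblasts, periosteum and the sensory nerves that enter the tissue.

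Both Trk receptor genes encode truncated forms that lack the kinase, and the ends of the coding sequence that set these forms apart are shown because the length column described below bears on them. They were read from the NCBIM37 genome in the direction of the gene, with the stop codon in capitals. The truncated Ntrk2 transcript of 7002 bases, whose receptor is known as TrkB.T1, ends its coding sequence with 38 bases at chr13:59033384-59033421 on the plus strand. The truncated Ntrk3-002 ends with 135 bases at chr7:85449178-85449312 and 119 bases at chr7:85447515-85447633 on the minus strand.
Ntrk2, end of the truncated form: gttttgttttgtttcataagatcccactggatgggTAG
Ntrk3-002 next to last segment: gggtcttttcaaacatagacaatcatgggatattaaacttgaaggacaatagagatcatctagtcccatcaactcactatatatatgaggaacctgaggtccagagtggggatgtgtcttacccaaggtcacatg
Ntrk3-002 last segment: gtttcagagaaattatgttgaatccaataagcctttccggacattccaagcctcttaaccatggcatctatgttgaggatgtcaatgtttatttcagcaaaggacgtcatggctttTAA

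The 250 bases before the transcription start are shown for a gene that fell, Ntf3, and for the receptors Ngfr and Ntrk2, which rose, from the RefSeq promoter table of the build GRCm38.p6. That table matched 4 of the 6 genes, with 11 windows in all, and held none for Ntrk3 and Sort1. Capitals mark matches to a GC box (GGGCGG) or to a RUNX core (TGTGGT), searched on both strands. The windows are chr6:126166745-126166994 (minus strand) for the first of the 2 Ntf3 starts, chr11:95587699-95587948 (minus strand) for Ngfr and chr13:58806319-58806568 (plus strand) for Ntrk2.
Ntf3: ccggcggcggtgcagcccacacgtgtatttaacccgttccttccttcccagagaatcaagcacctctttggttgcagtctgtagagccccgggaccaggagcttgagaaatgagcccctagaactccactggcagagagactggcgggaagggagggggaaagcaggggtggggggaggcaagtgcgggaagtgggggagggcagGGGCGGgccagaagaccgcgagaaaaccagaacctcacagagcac
Ngfr: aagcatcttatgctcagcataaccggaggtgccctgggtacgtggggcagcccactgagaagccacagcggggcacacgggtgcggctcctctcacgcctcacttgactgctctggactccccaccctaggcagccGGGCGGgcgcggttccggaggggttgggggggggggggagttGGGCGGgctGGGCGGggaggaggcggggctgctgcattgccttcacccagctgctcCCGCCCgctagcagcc
Ntrk2: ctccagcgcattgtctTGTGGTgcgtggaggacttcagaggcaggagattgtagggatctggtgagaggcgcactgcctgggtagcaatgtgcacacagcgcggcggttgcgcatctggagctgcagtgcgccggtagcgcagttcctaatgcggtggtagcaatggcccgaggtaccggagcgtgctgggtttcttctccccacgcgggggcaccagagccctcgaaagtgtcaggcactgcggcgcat
The Ngfr window held 4 GC box matches and was 70.4% G or C, against a median of 52.4% over all windows. Both Ntf3 windows held 1 GC box match and the Ntrk2 window held none. Of the 7 Bdnf windows, which are not shown, window 2 held 2 GC box matches, window 4 held 1 and the others held none. The Ntrk2 window held 1 RUNX core match, and no such match was found in the windows of the other matched genes. Of the 32851 windows of the table, 32.7% held a GC box and 14% a RUNX core, so these matches are common and are given as a description only. The cAMP response element was searched only as an exact match to TGACGTCA. Such a match was held by 1.55% of the windows and by none of the 11. Forms that differ from it in any base were not searched for.

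The total estimated count, summed over the 3 profiles, lay between 22470195 on day 10 and 62009157 on day 12, with a median of 43146793 per day, so that 3 counts correspond to 0.0484 to 0.134 CPM (counts scaled to the library's depth). Osteoblast identity was checked on 9 markers, of which 7 rose over the series and none fell, against 28.3% of all genes rising and 26.1% falling in the same fit, described below. The 2 others did not pass the test: Sp7, a transcription factor of the osteoblast lineage, stood at 32.3 TPM on day 2, 2.77 on day 8 and 10.6 on day 18 (log2 change -1.23, SE 0.83, edgeR adjusted p = 0.233), and Alpl, alkaline phosphatase, at 9.13 TPM on day 2, 0.467 on day 6 and 17.6 on day 18. Without day 2 both were called as rising, Sp7 with a log2 change of 1.42 and Alpl with 5.79. The rise of Runx2 was lost without day 4 or day 14. The collagen genes Col1a1 and Col1a2 stood at 1526 and 983 TPM (abundance per transcript length, scaled to the upper quartile of each profile) already on day 2, and the late marker Bglap, osteocalcin, rose from 1.24 TPM on day 2 to 208 on day 18. Markers of other cells moved as well. The summed level of 7 macrophage markers was 24.1 to 61.7 TPM on days 2 to 6 and 522 to 2014 TPM on days 14 to 18, with 6 of the 7 rising, most of it Lyz2. That of 5 adipocyte markers was 3.21 to 7.44 TPM early and 188 to 407 TPM late, with all 5 rising. In bulk RNA of this kind, a change in the number of cells of a type and a change in RNA per cell cannot be told apart.

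The ligand genes fell. Bdnf, brain-derived neurotrophic factor, stood at 16.0 ± 0.469 TPM on day 2 (SD, n = 3 lane profiles, as in all such values here) and then, every other day, at 12.9, 8.03, 6.65, 3.72, 3.36, 2.43, 3.35 and, on day 18, 3.06 ± 0.149 TPM. It was detected at 1 TPM or more on all 9 days, and every day from 2 to 8 was above every day from 10 to 18. The counts behind these levels were 1679, 1312, 848, 489, 195, 436, 251, 363 and 295 in the order of the days. Ranked by CPM, days 8, 6, 4 and 2 each stood clear of the day ranked below, by exact 95% Poisson intervals. Among the 5 lowest days, 10 to 18, each interval overlapped that of its neighbour in rank, but day 14, the lowest, was clear of days 10, 12 and 16, and day 18 of day 10. Poisson intervals cover counting error only. The step of Bdnf with the largest ratio was from day 8 to day 10, where CPM fell 1.89-fold (95% interval 1.60 to 2.25). The only rise was from day 14 to day 16, 1.29-fold (1.10 to 1.52). Averaged over days 2 to 6 the level was 12.3 TPM and that over days 14 to 18 was 2.95 TPM, a 4.18-fold difference.

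Ntf3 was scarcer and fell further. From day 2 to day 18 its level was 2.36 ± 0.610, 2.16, 1.44, 1.11, 0.253, 0.0590, 0.0340, 0.382 and 0.0353 TPM. It passed 1 TPM on 4 days, 2 to 8, and on no later day. The whole series held 231 counts of the gene, in the order of the days 78, 63, 45, 25, 4, 2, 1, 12 and 1. Days 12, 14 and 18 lie at or under the floor of 3 counts, and no order among them is read. Of the 8 steps between neighbours in rank, 7 had overlapping Poisson intervals, so most neighbours in rank were not separated. Between day 8 and day 10 the CPM fell 4.72-fold, with an interval of 1.63 to 18.6. The mean over days 2 to 6 was 1.99 TPM and that over days 14 to 18 was 0.150 TPM, a 13.2-fold difference that rests on few late counts.

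The receptor genes rose from near the limit of detection. Ngfr encodes p75, a receptor of the tumour necrosis factor receptor family that is also used as a surface marker of neural crest and stromal cells. It held 18, 18, 22 and 18 counts on days 2 to 8, and 113, 368, 457, 602 and 685 counts on days 10 to 18. The same days stood at 0.192, 0.200, 0.240, 0.281, 2.36, 3.24, 5.15, 6.20 and 8.04 TPM, the last with an SD of 0.417. The 4 first days were level within counting error and every later day was above them. Between day 8 and day 10 the CPM rose 8.32-fold, with a 95% interval of 5.03 to 14.5, and no other step of Ngfr exceeded 1.71-fold. The level passed the midpoint of its range, 4.12 TPM, on day 14. The means were 0.210 TPM over days 2 to 6 and 6.46 TPM over days 14 to 18, a 30.7-fold difference.

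Ntrk2, whose full-length product is the kinase receptor for Bdnf, rose from day 4 onwards. Its counts were 39, 22, 85, 133, 453, 2384, 2832, 3610 and 4349 in the order of the days. In TPM it stood at 0.205, 0.116, 0.435, 0.970, 4.45, 9.87, 15.1, 17.5 and 24.3 ± 0.921. Day 4 was the lowest and day 18 the highest, and from day 4 onwards each day was above the day before it. In rank order, 1 of its 8 steps had overlapping intervals. The gene rose in steps of 3.79-fold from day 4 to day 6 (95% interval 2.35 to 6.36), 2.27-fold from day 6 to day 8 (1.71 to 3.01) and 4.51-fold from day 8 to day 10 (3.71 to 5.52). The means over days 2 to 6 and 14 to 18 were 0.252 and 19.0 TPM, a 75.3-fold difference.

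Ntrk3, which encodes the neurotrophin-3 receptor TrkC, rose to day 14 and was lower on day 18. It held 9, 23, 17, 50, 165, 649, 679, 694 and 551 counts in the order of the days, or 0.243, 0.503, 0.292, 1.35, 4.68, 10.5, 15.6, 13.7 and 10.5 TPM. The CPM rose 4.26-fold from day 6 to day 8 (95% interval 2.42 to 7.88) and 4.37-fold from day 8 to day 10 (3.17 to 6.13). Day 14 was the highest on both scales. From day 14 to day 18 CPM fell 1.21-fold (1.08 to 1.36), and TPM fell 1.48-fold, from 15.6 ± 1.41 to 10.5 ± 0.879. The mean transcript length used for TPM rose from 1839 to 2232 bases over those days. The means of TPM over days 2 to 6 and 14 to 18 were 0.346 and 13.3, a 38.4-fold difference.

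Sort1, sortilin, carries proteins between the Golgi, the endosomes and the cell surface and is the partner of p75 for proneurotrophins. It was present throughout and rose more evenly, with counts of 368, 529, 846, 845, 1105, 3168, 2828, 2923 and 2986. In the same order the levels were 3.35 ± 0.404, 5.52, 8.74, 12.0, 22.4, 25.3, 34.1, 29.9 and 32.8 ± 2.58 TPM. The days from 10 onwards were above all earlier days. No step of its CPM exceeded 1.73-fold, which was that from day 8 to day 10 (95% interval 1.58 to 1.90). The means over days 2 to 6 and 14 to 18 were 5.87 and 32.3 TPM, a 5.50-fold difference. The predicted gene Gm12523 overlaps 753 bases at the 5′ end of Sort1 on the opposite strand but held 6 counts in the whole series. Sort1 had fractional counts in 4 profiles, where reads shared with other transcripts were divided.

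**Figure D1:**
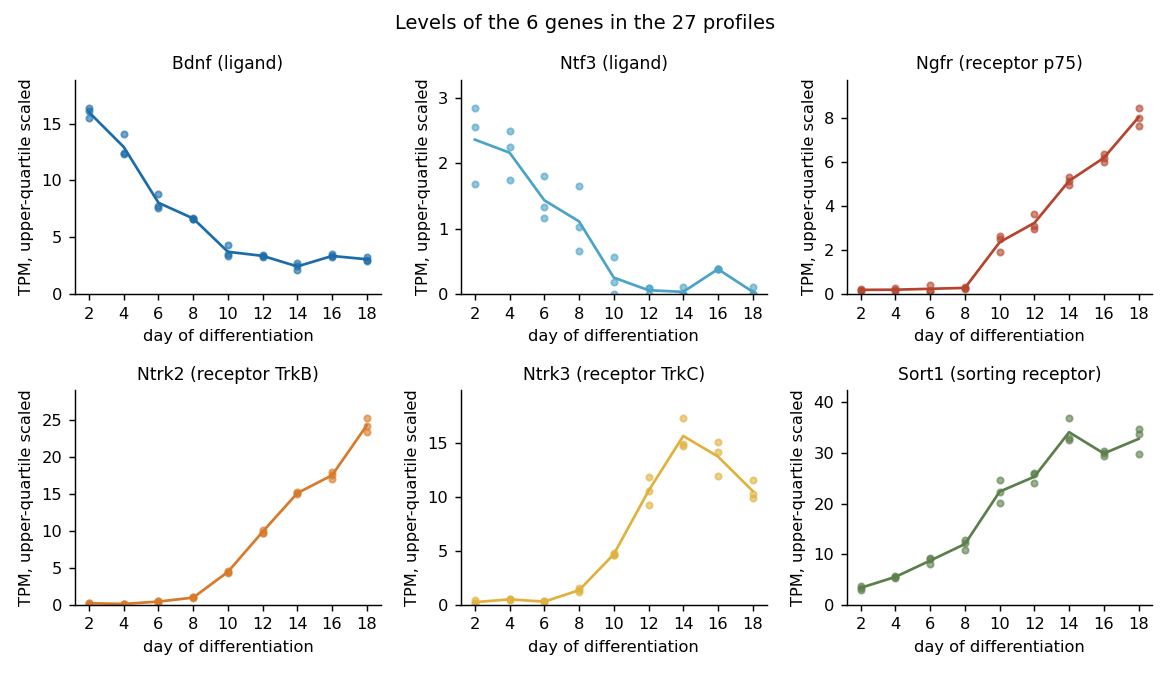
Levels of the 6 genes by day of differentiation. Points are the 27 profiles (3 sequencing lanes per day, counted as 1 library), and lines join the day means. The vertical axis is TPM after upper-quartile scaling, from 0 and with its own range in each panel. The ligand genes Bdnf and Ntf3 fall from 16.0 and 2.36 TPM on day 2, while the day means of Ngfr, Ntrk2 and Ntrk3 are at most 1.35 TPM up to day 8 and at least 2.36 TPM from day 10, and Sort1 rises from day 2.

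The order of the 6 genes in TPM, which is per length, changed with time. On days 2 and 4 Bdnf was first, then Sort1, then Ntf3, and the 3 receptor genes were last. From day 6 Sort1 was first. On day 8 Bdnf was still second with 6.65 TPM, ahead of Ntrk3 with 1.35, and from day 10 Ntrk2 and Ntrk3 were both above it. From day 14 Ngfr was also above Bdnf, and Ntf3 was last from day 10 on. Ntrk2 and Ntrk3 differed by less than the lane SD of Ntrk3 on days 12 and 14, and on day 18 Ntrk2 stood at 24.3 against 10.5 TPM. Summed over the 2 ligand genes, the level on days 2, 8, 10 and 18 was 18.4, 7.76, 3.97 and 3.10 TPM. The sum of the 3 receptor genes was 0.639, 2.60, 11.5 and 42.8 TPM on the same days, so that the sums crossed between day 8 and day 10. Ntrk2 stood at 1.88 times Ngfr on day 10 and at 2.83 to 3.05 times Ngfr from day 12 on.

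**Figure D2:**
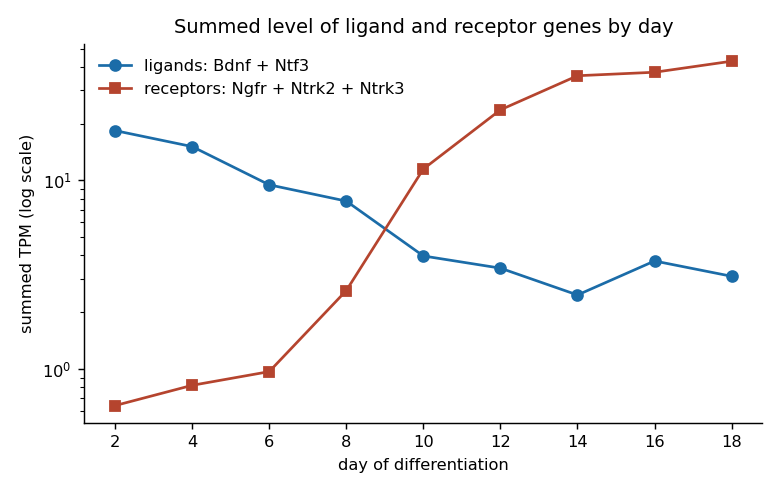
Summed TPM of the ligand genes Bdnf and Ntf3 (circles) and of the receptor genes Ngfr, Ntrk2 and Ntrk3 (squares) by day, on a log axis. The ligand sum falls from 18.4 to 3.10 TPM, the receptor sum rises from 0.639 to 42.8 TPM, and the lines cross between day 8 and day 10.

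The markers that moved beside the receptors were not all of 1 kind. Of 9 Schwann cell and glia markers 6 were tested, and 2 rose, S100b among them, and Mbp fell. The summed level of the 9 went from 12.6 to 15.7 TPM on days 2 to 6 to 43.0 to 51.7 TPM on days 14 to 18. S100b, which is also expressed outside glia, made up 47.8 of the 51.7 TPM on day 18. The defining markers Sox10 and Foxd3 held 4 and 1 counts on day 18, too few to be tested. Of 9 neuron markers 5 were tested, and none rose and 3 fell, while the others held too few counts to be tested. Over all genes tested, 28.3% rose and 26.1% fell, and both lists are too short to be set against these shares. The sum of the 9 neuron markers was 45.9 to 75.6 TPM early and 26.0 to 35.2 TPM late. Stmn2 made up 34.2 of the 45.9 TPM on day 2 and 24.1 of the 26.0 TPM on day 18. Ngfr and Ntrk2 rose at every step after day 8, while Ntrk3 rose to day 14 and was lower on days 16 and 18. The macrophage and adipocyte sums given above rose at every step after day 8. The part of these cells in the levels of the 6 genes was not tested.

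A straight line in day was fitted to the 9 summed libraries for all 15659 genes that passed the filter on low counts (edgeR, quasi-likelihood), and all 6 genes passed it. Between day 2 and day 18 the line changed, on the log2 scale, by -2.71 (SE 0.33) for Bdnf and -5.29 (SE 1.09) for Ntf3. It was 6.29 (SE 0.73) for Ngfr, 8.16 (SE 0.83) for Ntrk2, 6.68 (SE 1.04) for Ntrk3 and 3.15 (SE 0.38) for Sort1. Of all genes tested, 0.61% had a larger fitted change than Ntrk2, 1.37% than Ntrk3, 1.62% than Ngfr and 6.92% than Sort1, while 2.97% lay below Bdnf and 0.482% below Ntf3. Over all genes tested, 54.3% had an adjusted p under 0.05, 28.3% rising and 26.1% falling. No call is given for the 6 genes, since they were chosen with these values known. A line describes a gene such as Ngfr only roughly, because its level was the same within counting error up to day 8, and the SE includes that departure. For Ngfr the contrast of days 14 to 18 against days 2 to 6 gave 4.87 (SE 0.72) and for Ntf3 -3.79 (SE 1.08). Without day 16 the line of Ntf3 was at -7.62, since 12 of its 16 counts on days 12 to 18 lay on that day.

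The rest of the pathway moved in both directions. Outside the 6 genes, 6 lists of neurotrophin genes held 45 genes, of which 40 were tested, 15 rose, 12 fell and 13 did not pass the test. These are 37.5% and 30% of the genes tested, beside 28.3% and 26.1% of all genes. The median fitted log2 change over the 40 was 0.11, against 0.05 over all genes tested. The lists were drawn up with earlier results of these data known. Among the other ligands, Ntf5, neurotrophin-4, reached at most 0.554 TPM, on day 4, and did not pass the test (edgeR adjusted p = 0.107). Nradd, a membrane protein related to p75, fell from 16.3 TPM on day 2 to 3.79 on day 18 (log2 change -1.94, SE 0.24, edgeR adjusted p = 0.00013).

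In the sortilin family, 4 genes other than Sort1 were tested, and 2 rose, 1 fell and 1 did not pass. Sorl1 rose with a log2 change of 3.40 (SE 0.36, edgeR adjusted p = 6.69e-05). Sorcs1, another sorting receptor, rose to no more than 1.21 TPM, on day 10. Sorcs3 fell from a highest level of 0.156 TPM on day 6 to 0 counts on days 14, 16 and 18. Sorcs2, which also pairs with p75, ranged from 4.72 TPM on day 2 to 18.7 on day 6 and stood at 13.2 on day 18 (log2 change 0.11, SE 0.50, edgeR adjusted p = 0.864). Without day 2 its change was -0.61 (SE 0.17, edgeR adjusted p = 0.0153).

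Of 10 genes for enzymes that cleave proneurotrophins or activate those that do, 7 were tested, 3 rose and 1 fell. Pcsk5, a proprotein convertase, rose from 1.92 to 17.2 TPM between day 2 and day 18, and Mmp3, stromelysin, from 0.0510 to 6.23 TPM. The day 2 level of Mmp3 rests on 2 counts, under the floor of 3 counts. Pcsk6 rose from 4.97 to 9.48 TPM and Pcsk7 fell from 9.26 to 6.03 TPM. Furin, the general convertase of the secretory pathway, stood between 21.3 and 30.6 TPM on every day and did not pass the test (log2 change -0.32, SE 0.13, edgeR adjusted p = 0.0599). Plat, tissue plasminogen activator, peaked at 35.2 TPM on day 6, and its substrate gene Plg held 3 counts in the series.

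All 10 genes for intracellular or membrane partners of p75 were tested, and 3 rose and 5 fell. The adaptor gene Maged1 was the most abundant of them at late days and rose from 304 TPM on day 2 to 596 on day 18. Lingo1, a coreceptor of p75 in neurons, rose from 3.85 to 11.1 TPM, and Irak1 rose by a log2 change of 0.37. Ripk2, a kinase that binds the p75 death domain, fell from 43.5 to 9.06 TPM, and Ngfrap1, Prdm4, Arhgdia and Rtn4r fell as well. Of 17 genes that act below the Trk receptors, 16 were tested, and 7 rose and 3 fell. The adaptors Gab1 (10.0 to 27.9 TPM between day 2 and day 18), Shc1 (83.7 to 131 TPM), Shc2, Sh2b1 and Sh2b2 were among the rises, with Plcg1 and the phosphatase gene Ptprs. Crk (86.4 to 60.1 TPM), Rapgef1 and Ptpn11 fell. The adaptor genes Frs2, Frs3, Grb2 and Nck1, the exchange factor gene Sos1 and the scaffold gene Kidins220 did not pass the test. Of the 27 genes called, 20 were called in every fit that left out 1 day or 1 replicate. The other 7 were Sorcs1, Pcsk6, Irak1 and Sh2b2, which rose, and Arhgdia, Rtn4r and Ptpn11, which fell. Of the 13 genes not called, 5 were called in at least 1 such fit: Sorcs2 and Plat, as falling, without day 2, Furin, as falling, without day 10, day 18 or replicate 2, Pcsk2, as rising, without day 8, and Traf6, as rising, without day 16.

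**Figure D3:**
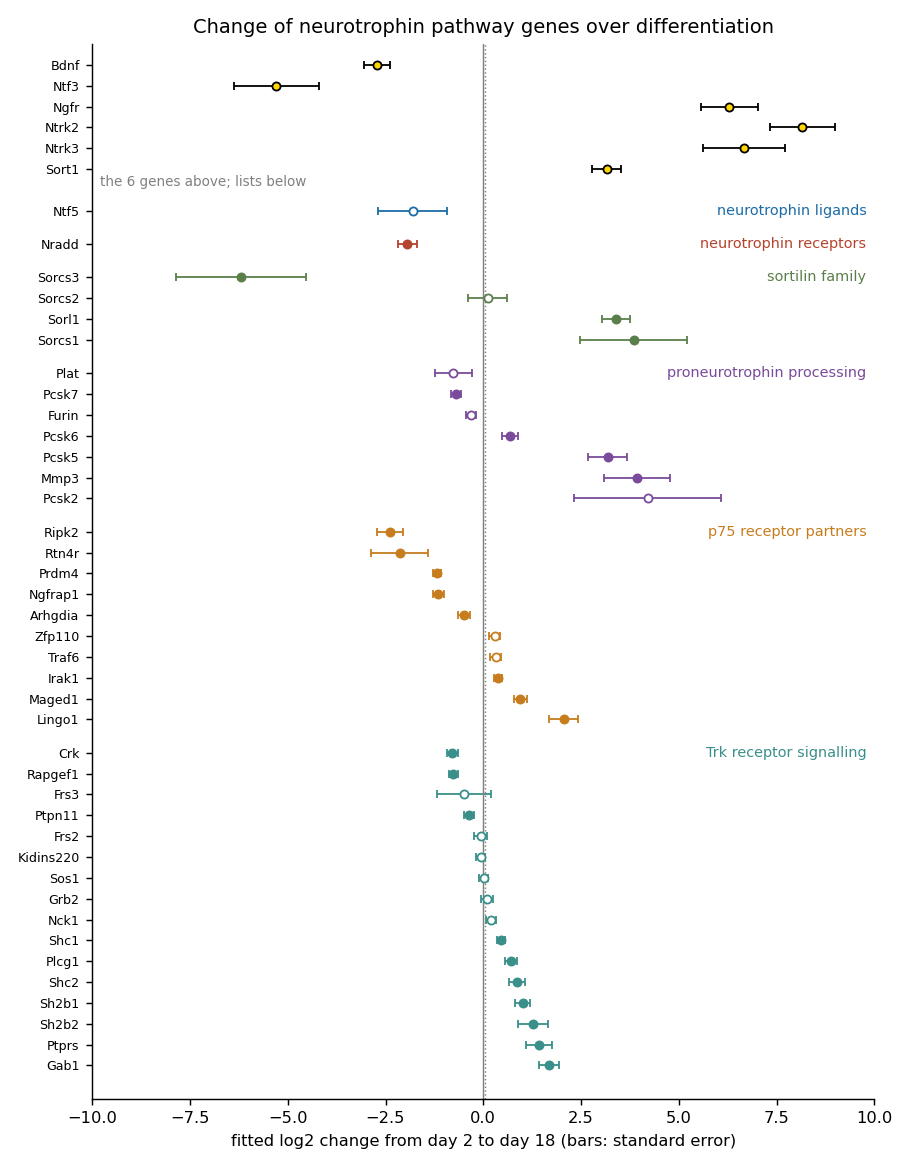
Fitted log2 change from day 2 to day 18 (horizontal axis, with bars for 1 standard error) of the 6 genes (yellow) and of tested genes of 6 neurotrophin lists (colours). Filled circles of the lists have an adjusted p under 0.05 (edgeR), open circles do not, and the dotted line is the median of all genes tested, 0.05. Ngfr, Ntrk2 and Ntrk3 lie between 6.29 and 8.16, to the right of every list gene, while the Trk signalling genes lie between -0.79 and 1.67.

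The deposited length of a gene in a profile is the mean of its transcripts weighted by their estimated abundance. The choice of genes did not use it directly, but it enters TPM and is not independent of the levels above. It moves when the mix of isoforms moves. For 22106 of 22202 genes with 1 transcript it equalled the annotated length within 0.005 bases. Ntrk2 has 5 annotated transcripts, the truncated form of 7002 bases and 476 codons, 3 kinase-length forms of 8325 to 8541 bases, and a short form of 2719 bases. The length was exactly 7002 in 11 of the 27 profiles, all on days 2 to 10 and with 5 to 157 counts each. On days 12 to 18, where the gene held 2384 counts or more, no profile had exactly this length. On those days the length stayed between 6922 and 7023 bases. The same mean could also come from a mix of longer and shorter forms. If these 5 transcripts are the only ones, the day means allow the kinase-length forms at most 75.1% to 76.7% of Ntrk2 transcripts. The line in day of its log2 length had a slope equal to a change of 0.0018 (SE 0.0088) over the series (limma, adjusted p = 0.995).

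Ntrk3 has 4 annotated transcripts, the kinase form Ntrk3-001 of 3300 bases, the truncated Ntrk3-002 of 2337 bases, the retained intron Ntrk3-003 of 2850 bases and the processed transcript Ntrk3-004 of 868 bases. From day 10 to day 18 the mean length was 2607 ± 85.7, 2011 ± 173, 1839 ± 160, 1935 ± 121 and 2232 ± 152 bases. Day 10 stood above the 4 later days in all of its 3 profiles. If these 4 transcripts are the only ones, a mean of 1839 requires Ntrk3-004 to make up at least 33.9% of Ntrk3 transcripts on day 14 and allows Ntrk3-001 at most 39.9%. On day 10 the limits are 0% and 71.5%. Before day 8 the lengths rest on 9 to 23 counts a day, and Ntrk3 was left out of the test over all days for that reason. Over days 8 to 18 alone, an alternative chosen after the data had been seen, its log2 length changed by -0.13 (SE 0.21, limma adjusted p = 0.972).

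**Figure D4:**
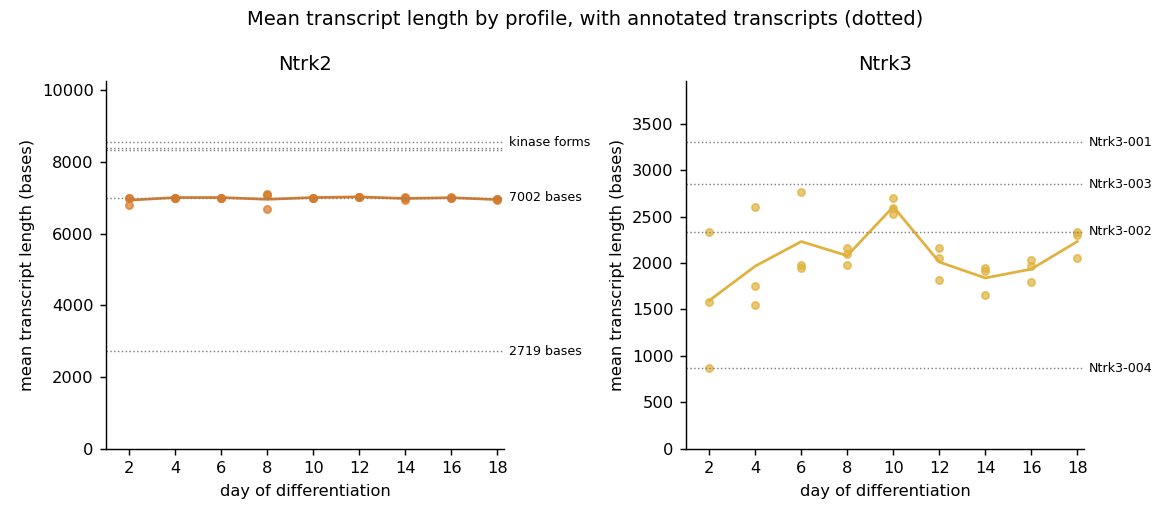
Mean transcript length in bases of Ntrk2 (left) and Ntrk3 (right) by day. Points are the 27 profiles, the line joins the day means, and dotted lines mark annotated transcripts. Ntrk2 stays close to the 7002 bases of its truncated form. Ntrk3 stands at 2607 bases on day 10, above its truncated form Ntrk3-002 of 2337 bases. On day 14 it stands at 1839 bases, between Ntrk3-002 and the short Ntrk3-004.

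Bdnf has 11 transcripts in the files, of which 10 are in the annotation, with lengths of 3756 to 4265 bases that mostly differ in the first exon, upstream of the coding sequence. Its mean length stayed between 3750 and 3969 bases on all days. The fitted log2 change was -0.009 (SE 0.025, limma adjusted p = 0.964). Sort1 had a mean length of 4084 ± 474 bases on day 2 and 3670 ± 115 on day 18, with a fitted log2 change of -0.15 (SE 0.078, limma adjusted p = 0.478). Of the 3 genes in this test none was called. Of all 9541 genes tested, 86 (0.901%) were called, and none were when day 2 or day 4 was left out, although 1035 and 1049 genes then had an unadjusted p under 0.05. Ngfr has 1 transcript of 3446 bases, and its length cannot move.

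In the NCBIM37 annotation the genes lie on 6 chromosomes: Bdnf at chr2:109514857-109567204, Ntf3 at chr6:126051431-126116762, Ngfr at chr11:95430132-95449049, Ntrk2 at chr13:58907957-59235331, Ntrk3 at chr7:85337248-85723294 and Sort1 at chr3:108087009-108164429. Nearest to Bdnf among its listed neighbours, Lin7c, which lies 163805 bases beyond it, fell by 0.72 on the log2 scale (SE 0.18, edgeR adjusted p = 0.00702). That call was lost without day 2 (edgeR adjusted p = 0.0566). The next gene, Lgr4, did not pass the test (log2 change -0.13, SE 0.21, edgeR adjusted p = 0.624).

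The genes whose profile over the 9 days was most like that of each gene were ranked by Pearson's r of log2(CPM + 0.5) among 13297 genes with a mean of at least 1 TPM. Each day was counted as 1 library. A high r is common in this series: 412 genes had r over 0.95 with Ngfr and 1122 with Bdnf. The 5 most like Ngfr were Myoc (0.114 TPM on day 2 to 7.06 on day 18), Zrsr1, Epas1, Rasgrf1 and Gm11428, with r of 0.993 to 0.996. Those most like Bdnf were Ipo7, Polr3g and Otud6b, and those most like Ntf3 were Impa1, Tmsb4x and Elavl1. For Ntrk2 they were Adamts17, Gas6 and Rbl2, for Ntrk3 Dennd4a, Cmbl and Myo6, and for Sort1 Gaa and Fndc5. Pearson's r does not depend on the size of a change. Between day 2 and day 18 Zrsr1 went from 5.34 to 11.8 TPM, against 0.192 to 8.04 for Ngfr. Impa1 went from 23.3 to 16.3 TPM, against 2.36 to 0.0353 for Ntf3. From day 10 on, the CPM of Ntf3 was at most 0.237, under the 0.5 added before the log.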

How the data were processed

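RNA sequencing profiles of calvarial cells on 9 days were used, 27 in all. The submitters' processing notes name Bowtie 0.12.9, RSEM 1.2.8 and the build NCBIM37. The RNA had been amplified to cDNA (NuGEN Ovation) before library construction. The authors deposited each estimated count as RSEM's expected count per gene, which is not normalized. The TPM deposited by the authors divide these by an effective transcript length and sum to the same total in each profile. The FPKM deposited by the authors divide the fragments of a gene by its length and by the depth of the profile. The length columns deposited by the authors give the mean transcript length of each gene.

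The 6 genes and all gene lists were chosen with earlier results of these data known. Following the study's methods, TPM were scaled so that the upper quartile of the non-zero values is the same in every profile. Estimated counts were summed over the 3 profiles of a day and rounded. Within a day these profiles agree within sampling noise (chi-square per degree of freedom 0.999 to 1.02 over genes with whole counts). The 9 libraries were fitted with a line in day by edgeR 4.0.16 in R 4.3.3. Settings were normalization by the upper quartile, filterByExpr at 10 counts, the quasi-likelihood F test and an adjusted p under 0.05 after Benjamini-Hochberg. The fitting code had first been run on simulated data. Those data varied less around the line and held few changed genes, so the run does not measure error rates here. Mean transcript lengths were fitted on the log2 scale with limma 3.58.1 for genes with at least 10 counts on every day. Intervals of counts are exact Poisson and those of ratios exact binomial, at 95%. P-values measure the spread of single libraries around a line, not between cultures. Named genes were the 6 genes, the genes of the lists, the 5 genes most like Ngfr, the 3 most like each other member and genes overlapping a member. Some genes that this rule names are not reported here, although counts and sums over a list include them. Alternatives were TMM factors, DESeq2 1.42.0, no filter, the 27 profiles as separate samples, leaving out replicates or days, late against early days, a natural spline, limma on log2 TPM, deposited TPM and FPKM, and other length filters. Same-numbered profiles of different days did not deviate together (mean correlation of their deviations 0.0031). Since the profiles of a day differ by no more than sampling noise, this value cannot show what the numbers name.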

Additional observations from a re-analysis of the deposited data

How the results depend on the processing

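The direction of all 6 genes was the same under every alternative tried. Their fitted log2 changes moved by more than the standard error of the line mainly where the shape or the scale was changed. For days 14 to 18 against days 2 to 6 they were -2.14 (Bdnf), -3.79 (Ntf3), 4.87 (Ngfr), 6.18 (Ntrk2), 5.24 (Ntrk3) and 2.30 (Sort1). With the natural spline they were -3.66 (Ntf3), 5.30 (Ngfr) and 7.28 (Ntrk2), and on log2(TPM + 1), which compresses low levels, -2.25 (Bdnf), -1.85 (Ntf3), 3.44 (Ngfr), 5.22 (Ntrk2) and 4.32 (Ntrk3). Leaving out a day or a replicate gave -3.16 to -2.48 for Bdnf, -7.62 to -4.87 for Ntf3, 5.96 to 6.81 for Ngfr, 7.59 to 8.98 for Ntrk2, 6.13 to 7.87 for Ntrk3 and 2.84 to 3.56 for Sort1. With the 27 profiles as separate samples and a replicate block the changes were -2.76 (Bdnf), -5.30 (Ntf3), 6.12 (Ngfr), 7.87 (Ntrk2), 6.09 (Ntrk3) and 3.11 (Sort1). The replicate block gave 10881 genes called, against 8510 for the summed libraries.

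Mean levels over the 9 days were 6.76 (Bdnf), 2.76 (Ngfr), 7.75 (Ntrk2), 6.13 (Ntrk3) and 18.9 (Sort1) in TPM as deposited, and 4.39, 1.77, 4.95, 3.92 and 12.1 FPKM for the same genes, with 0.587 FPKM for Ntf3. Leaving out a replicate moved them to 6.56 to 6.67 (Bdnf), 0.843 to 0.923 (Ntf3), 2.86 to 2.89 (Ngfr), 8.04 to 8.19 (Ntrk2), 6.30 to 6.49 (Ntrk3) and 19.3 to 19.5 TPM (Sort1). Pathway calls were not counted for limma on log2 TPM. Counts of called genes over the whole table and in the pathway lists stayed within 1.5 times under all alternatives fitted to counts. With a day or replicate left out they were 7187 to 8447 genes in all, 12 to 16 pathway genes that rose and 9 to 13 that fell. The fitted change in transcript length turned sign over days 8 to 18 for Bdnf (0.012) and Ntrk2 (-0.0029), and leaving out a day or replicate gave -0.022 to 0.0051 for Bdnf, -0.0094 to 0.0091 for Ntrk2 and -0.23 to -0.077 for Sort1, with no call in any case. The count of genes whose length followed day was 0 over days 8 to 18, where 809 had an unadjusted p under 0.05, and 0 to 73 with a day or replicate left out. The alternatives over days 8 to 18, and the days left out of that count, were chosen after the data had been seen.

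With the 3 profiles of a day counted as 1 library, and no replicate cultures named in the labels, a day and its culture cannot be told apart. Depth limits Ntf3 after day 8, Ntrk3 before day 8 and Ngfr, Ntrk2 and Sorcs3 where they hold few counts. Transcript length is an estimate from short reads and was not checked against reads over splice junctions.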

Other observations

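The GDNF family, another group of neurotrophic factors and their receptors, held 9 genes, of which 5 were tested, and 3 rose and 1 fell. Over all genes tested, 28.3% rose and 26.1% fell, and a list of 5 is too short to be set against these shares. The ligand gene Gdnf fell from 4.08 TPM on day 2 to 0.101 on day 10 and stood at 0.394 on day 18 (log2 change -3.80, SE 0.79, edgeR adjusted p = 0.00238). Gfra2, which encodes the binding receptor for neurturin, rose from 1.40 TPM on day 2 to 97.0 on day 12 and 77.3 on day 18 (log2 change 6.98, SE 1.42, adjusted p = 0.00208). Gfra1, the binding receptor for Gdnf, rose from 0.896 to 14.3 TPM between day 2 and day 18, and Gfra4 from 2.98 to 8.91 TPM. Ret, the kinase that signals for these receptors, stayed between 0.331 and 0.805 TPM and did not pass the test (adjusted p = 0.448).

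The TPM of Sorl1 depended on its estimated length. On day 10 its 3 profiles held 85, 106 and 107 counts but stood at 3.09, 3.15 and 82.9 TPM, and the last had a mean transcript length of 474 bases, against 5905 and 6847 in the others. On day 16 the profiles held 408, 403 and 414 counts and stood at 11.5, 3.82 and 36.7 TPM. In CPM, which uses no length, Sorl1 went from 2.37 on day 2 to 24.2 on day 16 without a peak on day 10.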
